A study of Mus musculus with 4 samples.

Results

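Cells of the oligodendrocyte lineage with a high level of *Gpr17* were taken from mouse prefrontal cortex (PFC) at 4 ages, and 2192 of 59918 cells (3.66%) met the definition. A cell was counted as Gpr17-high if it had at least 5 *Gpr17* unique molecular identifiers (UMIs, each marking 1 captured RNA molecule) per 10,000 of its UMIs, at least 1 UMI of *Olig1*, *Olig2* or *Sox10*, and less than 5 UMIs per 10,000 of *Mog*, *Mag* and *Opalin* together. They were compared with 1136 cells of the same libraries that had at least 3 *Pdgfra* UMIs per 10,000 and less than 5 of *Gpr17*, called Gpr17-low Pdgfra cells here. These cells were chosen by measured levels, with results of these data in view, so levels of *Gpr17*, *Pdgfra*, *Olig1*, *Olig2*, *Sox10*, *Mog*, *Mag* and *Opalin* describe the choice and were not tested.

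The study profiled wild-type, untreated female C57BL/6J mice at postnatal days (P) 1, 4 and 10 and as adults (P84), with 1 single-cell RNA library per age. Cells of 2 animals were combined at each age and cannot be assigned to an animal here. Each age is therefore 1 sample, values at different ages are given with counting intervals only, and no test between ages was made. Tissue was dissociated with papain and a protease in the presence of Actinomycin D, which blocks new transcription, and was not sorted.

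Oligodendrocytes wrap axons in myelin. They arise from oligodendrocyte precursor cells (OPCs), which divide, carry the growth factor receptor Pdgfra and the proteoglycan NG2 (encoded by *Cspg4*), and remain in the brain throughout life. An OPC that differentiates leaves the cell cycle, loses Pdgfra and NG2, and passes through a short premyelinating stage before it switches on the genes of compact myelin. Gpr17, a receptor related to those for nucleotides and cysteinyl leukotrienes, is known as a marker of the late OPC and of this committed stage, in which *Bcas1* and *Enpp6* are also switched on. Olig1, Olig2 and Sox10 are the transcription factors that define the lineage as a whole.

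The 59918 cells comprised 11545 (P1), 19014 (P4), 15272 (P10) and 14087 (adult). Over all deposited barcodes, before cells were filtered, total UMIs ranged from 200198548 in adult to 340724049 at P1. Of these barcodes, 12 to 20 were shared by P1 with each other library and 319 to 368 by pairs of the other libraries. Among Gpr17-high cells, 1 barcode occurred in both P4 and P10. The header of the P1 file differs from the others: it names a later pipeline version and Enhanced beads, where the others name version 1.8. The age and these technical features cannot be told apart between P1 and P4. The Gpr17-high cells of P1 were also the most deeply covered, with a median of 18818 UMIs per cell, against 5428 (P4), 4557 (P10) and 4607 (adult).

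The Gpr17-high cells made up 64 of the cells at P1, or 0.554% (95% exact binomial interval 0.427 to 0.707). At P4 they numbered 415 (2.18%, 1.98 to 2.40), at P10 1225 (8.02%, 7.60 to 8.46) and in adult 488 (3.46%, 3.17 to 3.78). Their share was therefore highest in the P10 library and lowest in the P1 library, with no overlap of the counting intervals of any 2 ages. The Gpr17-low Pdgfra cells numbered 141, 461, 376 and 158 in the same order. Myelinating oligodendrocytes, taken as cells with at least 5 UMIs per 10,000 of *Mog*, *Mag* and *Opalin*, less than 5 of *Gpr17* and a lineage UMI, numbered 1 (P1), 0 (P4), 11 (P10) and 1207 (adult). Cells with that much myelin transcript and at least 5 *Gpr17* UMIs per 10,000, which belong to none of these classes, numbered a further 0, 11, 85 and 65. These shares are of captured cells, and how well each cell type survived dissociation was not measured.

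**Figure D1:**
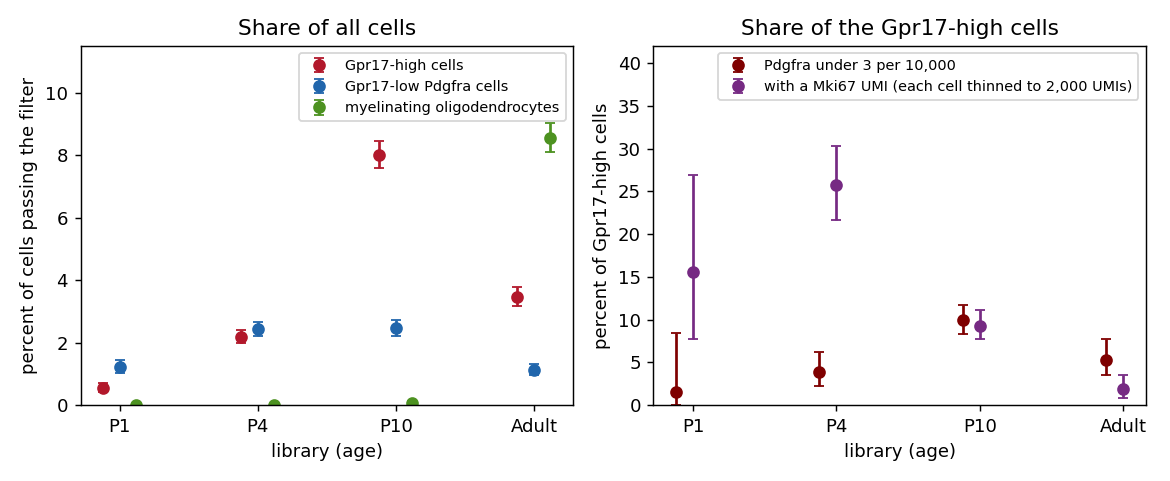
Shares of cells by age. Left, percent of cells passing the filter that were Gpr17-high, Gpr17-low Pdgfra or myelinating oligodendrocytes. Right, percent of the Gpr17-high cells with Pdgfra under 3 per 10,000 and with a *Mki67* UMI after each cell was thinned to 2,000 UMIs. Points are shares of 1 library and bars are 95% exact binomial intervals. The Gpr17-high share is highest at P10 (8.02%), and the *Mki67* share is lowest in adult (1.86%).

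Most of these cells also carried the defining transcripts of OPCs, so that the name committed precursor describes only a minority of them. *Pdgfra* reached at least 3 UMIs per 10,000 in 63 of 64 Gpr17-high cells of P1, 399 of 415 of P4 (96.1%), 1103 of 1225 of P10 (90.0%) and 462 of 488 adult cells (94.7%), in all 2027 of 2192 cells (92.5%). Their median *Pdgfra* level was 40.3 UMIs per 10,000 (P1), 52.4 (P4), 51.9 (P10) and 46.3 (adult). Both a *Pdgfra* and a *Cspg4* UMI were found in 1992 of the 2192 cells (90.9%). The cells are called Gpr17-high cells here for that reason. The 165 cells with *Pdgfra* under 3 per 10,000 (7.53%) are called Pdgfra-poor and the other 2027 Pdgfra-rich.

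**Figure D2:**
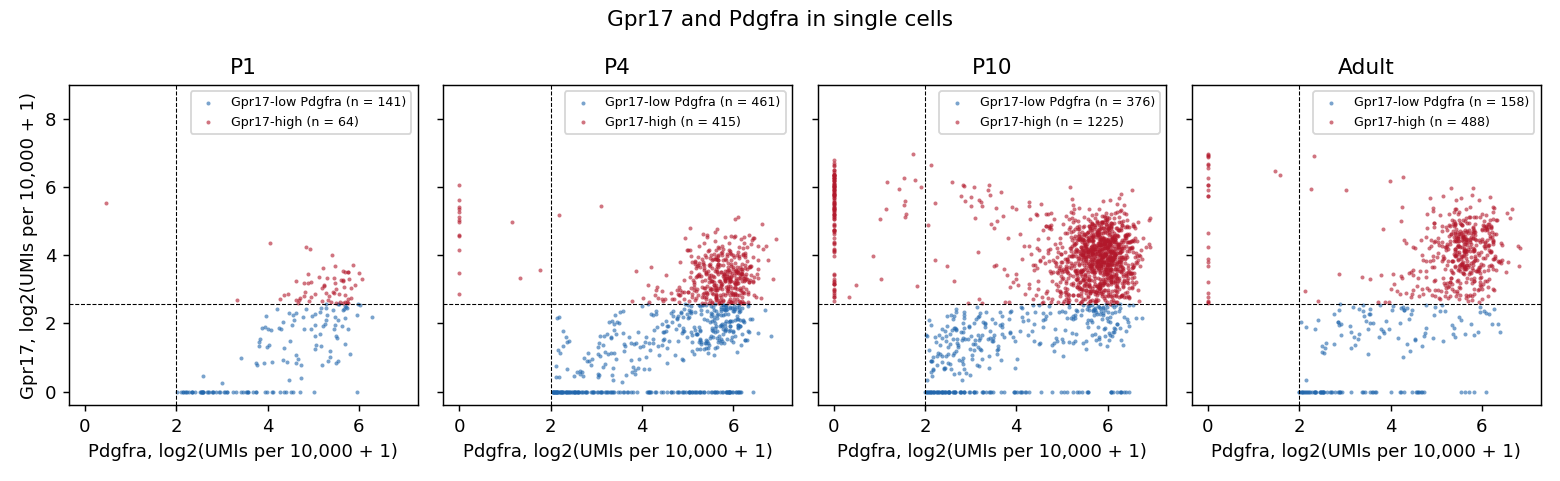
*Gpr17* against *Pdgfra* in single cells, 1 panel per library. Each point is a cell, both axes are log2(UMIs per 10,000 + 1), and the dashed lines mark the limits of 5 for *Gpr17* and 3 for *Pdgfra*. Most Gpr17-high cells (red) lie at high *Pdgfra*, with medians of 40.3 to 52.4 UMIs per 10,000, and the Pdgfra-poor cells at the left edge number 1, 16, 122 and 26 from P1 to adult.

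The median *Gpr17* level of the chosen cells was 7.17 UMIs per 10,000 (P1), 9.33 (P4), 15.3 (P10) and 16.7 (adult), and the highest single cells reached 45.1, 65.9, 125 and 124. Summed over cells, *Gpr17* stood at 918, 1250, 2085 and 2152 CPM (UMIs scaled to a common library total, with mitochondrial and ribosomal protein genes left out), against 168 to 241 CPM in Gpr17-low Pdgfra cells. Microglia, which should lack *Gpr17*, had 0 CPM at P1 and P4, 7.47 at P10 and 8.48 in adult. These *Gpr17* levels follow from the choice of cells. *Sox10* was at 879, 872, 1039 and 1090 CPM and *Olig2* at 1311, 1450, 1409 and 1714 CPM from P1 to adult.

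The limit at 5 cut through a continuous range. Just inside it, at 5 to 6 UMIs per 10,000, lay 20 cells (P1), 56 (P4), 63 (P10) and 22 (adult), and just outside, at 4 to 5, lay 16, 59, 56 and 20 cells. The cells just outside had a lineage UMI and less than 5 UMIs per 10,000 of *Mog*, *Mag* and *Opalin*, and were not chosen by *Pdgfra*. *Bcas1* stood at 215, 143, 173 and 50.8 CPM in the cells just inside and at 275, 139, 252 and 56.6 CPM in those just outside. These CPM, unlike the others, are of all UMIs, with mitochondrial and ribosomal protein genes included. Median *Pdgfra* was 39.3, 48.5, 46.3 and 32.9 UMIs per 10,000 inside and 45.7, 52.3, 47.0 and 18.1 outside. At the depth of these libraries, 2 *Gpr17* UMIs were enough to admit 0, 26, 49 and 19 of the cells, and 1 UMI to admit 0, 2, 5 and 5. The lineage requirement removed 0, 0, 6 and 5 cells with enough *Gpr17*, and the limit on myelin transcripts removed 0, 11, 85 and 65.

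Among all cells with *Pdgfra* of at least 3 per 10,000, a lineage UMI and little myelin transcript, the Gpr17-high share was 32.8% (26.2 to 39.9) in the P1 library, 48.4% (44.9 to 51.8) in P4, 76.5% (74.3 to 78.7) in P10 and 83.7% (80.3 to 86.7) in the adult library. The share was larger at each later age, with no overlap of the counting intervals. With cells that held many transcripts of other cell types removed (below called screened cells), it was 35.5%, 58.5%, 88.6% and 94.8%. Both limits are part of the choice of cells and depth differs between the libraries, so these shares are a description.

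The Pdgfra-poor cells had the highest summed level of committed precursor markers among the Gpr17-high cells in the last 3 libraries. They numbered 1 (P1), 16 (P4), 122 (P10) and 26 (adult), which for the last 3 ages is 3.86% (2.22 to 6.19), 9.96% (8.34 to 11.8) and 5.33% (3.51 to 7.71) of the Gpr17-high cells. This division was made after the values had been seen, so it is described without a test, over the 3 libraries with more than 1 such cell. Their median depth was 7727, 7221 and 5380 UMIs at P4, P10 and adult, against 5380, 4466 and 4588 in the Pdgfra-rich cells. Neuronal markers (*Snap25*, *Syt1*, *Rbfox3*, *Neurod6*, *Neurod2*, *Slc17a7*, *Gad1* and *Gad2* together) reached 20 UMIs per 10,000 in 12.5%, 21.3% and 50% of them, and the part of these transcripts in the differences below was not tested beyond the screened values given.

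*Enpp6*, which encodes a choline-specific phosphodiesterase of newly forming oligodendrocytes, ranked first among the genes higher in Pdgfra-poor than in Pdgfra-rich cells. At least 1 *Enpp6* UMI was found in 12 of 16 (P4), 99 of 122 (P10) and 18 of 26 (adult) Pdgfra-poor cells, and in 0 of 399, 14 of 1103 and 2 of 462 Pdgfra-rich cells. At P1 none of the 63 Pdgfra-rich cells had a UMI, which at the 95% level allows a share of up to 5.69%. Its level was 705, 848 and 648 CPM in the Pdgfra-poor cells, and 0, 24.3 and 1.87 CPM in the Pdgfra-rich cells. The log2 ratio was at least 8.93 at P4, computed against 3 UMIs, and 5.13 (4.85 to 5.41) at P10. At P4, 1 cell gave 20% of the *Enpp6* UMIs.

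*Bcas1*, a protein of premyelinating oligodendrocytes, stood at 2939 CPM (P4), 2498 (P10) and 1301 (adult) in Pdgfra-poor cells, against 160, 264 and 145 CPM in Pdgfra-rich cells. *Bmp4*, a secreted growth factor of the BMP family, stood at 641, 518 and 664 CPM against 4.81, 34.4 and 32.7. *Myrf*, the transcription factor that switches on myelin genes, stood at 606, 444 and 443 CPM against 19.7, 65.5 and 82.3. All 3 genes were higher in the Pdgfra-poor cells of every library, the smallest log2 ratio being 2.43 (*Myrf* in adult). The kinase gene *Fyn*, which acts in process growth and myelination, was at 4208, 3762 and 3709 CPM against 816, 692 and 456. *Itpr2*, an intracellular calcium channel that marks early differentiating cells, differed less, with 846, 699 and 476 CPM against 303, 422 and 329.

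Genes were compared between Pdgfra-poor and Pdgfra-rich cells if their mean over the 3 libraries reached 100 CPM in either group. A gene could thus enter through the group where it was high. Of 12 myelin genes listed, 9 were compared. Of these, 5 were at least 2-fold higher in Pdgfra-poor cells in each of the 3 libraries, beside 3.45% of all genes compared, and 4 were not. *Mbp*, a major protein of compact myelin, stood at 1558, 1208 and 891 CPM in Pdgfra-poor cells at P4, P10 and adult, against 42.8, 89.1 and 292 CPM in Pdgfra-rich cells. The tight junction gene *Cldn11* stood at 169, 244 and 614 CPM against 19.2, 17.7 and 25.3. Both were higher in the Pdgfra-poor cells at each age. Adult microglia had 417 CPM of *Mbp*, above the 292 CPM of the Pdgfra-rich cells, and what part of these adult values is free RNA was not tested. At P4 and P10 microglia had 20.3 and 29.9 CPM.

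Several OPC genes were lower in the Pdgfra-poor cells. *Cspg4* stood at 56.4 CPM (P4), 73.2 (P10) and 172 (adult), against 996, 1229 and 1016 CPM in Pdgfra-rich cells. *Ptprz1*, a receptor phosphatase and proteoglycan, stood at 1854, 1820 and 1268 CPM against 6143, 7152 and 7446, and *Cspg5* at 176, 344 and 227 CPM against 2025, 2822 and 3484. These surface genes were lower in the Pdgfra-poor cells of every library, though still present. *Ednrb*, the endothelin receptor, followed the same order with 331, 269 and 105 CPM against 2343, 2324 and 1767. *Spry4* and *Spry1*, feedback inhibitors of receptor tyrosine kinase signalling, stood at 7.05, 12 and 5.54 CPM and at 21.1, 25 and 5.54 CPM, against 342 to 497 and 378 to 402 CPM. *Mki67*, a marker of cycling cells, stood at 0, 25.9 and 0 CPM against 633, 204 and 28.5. Of 20 dividing cell genes listed, 10 reached a mean of 100 CPM in either group and were compared. Of these, 1 (*Ccnd1*) was at least 2-fold lower and 1 (*Cdkn1c*) at least 2-fold higher in each of the 3 libraries. The list median was -2.21 on the log2 scale. Genes can pass the limit of 100 CPM through the group where they are high, so nothing is read from this median. Over all genes compared 5.36% passed in the lower and 3.45% in the higher direction.

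**Figure D3:**
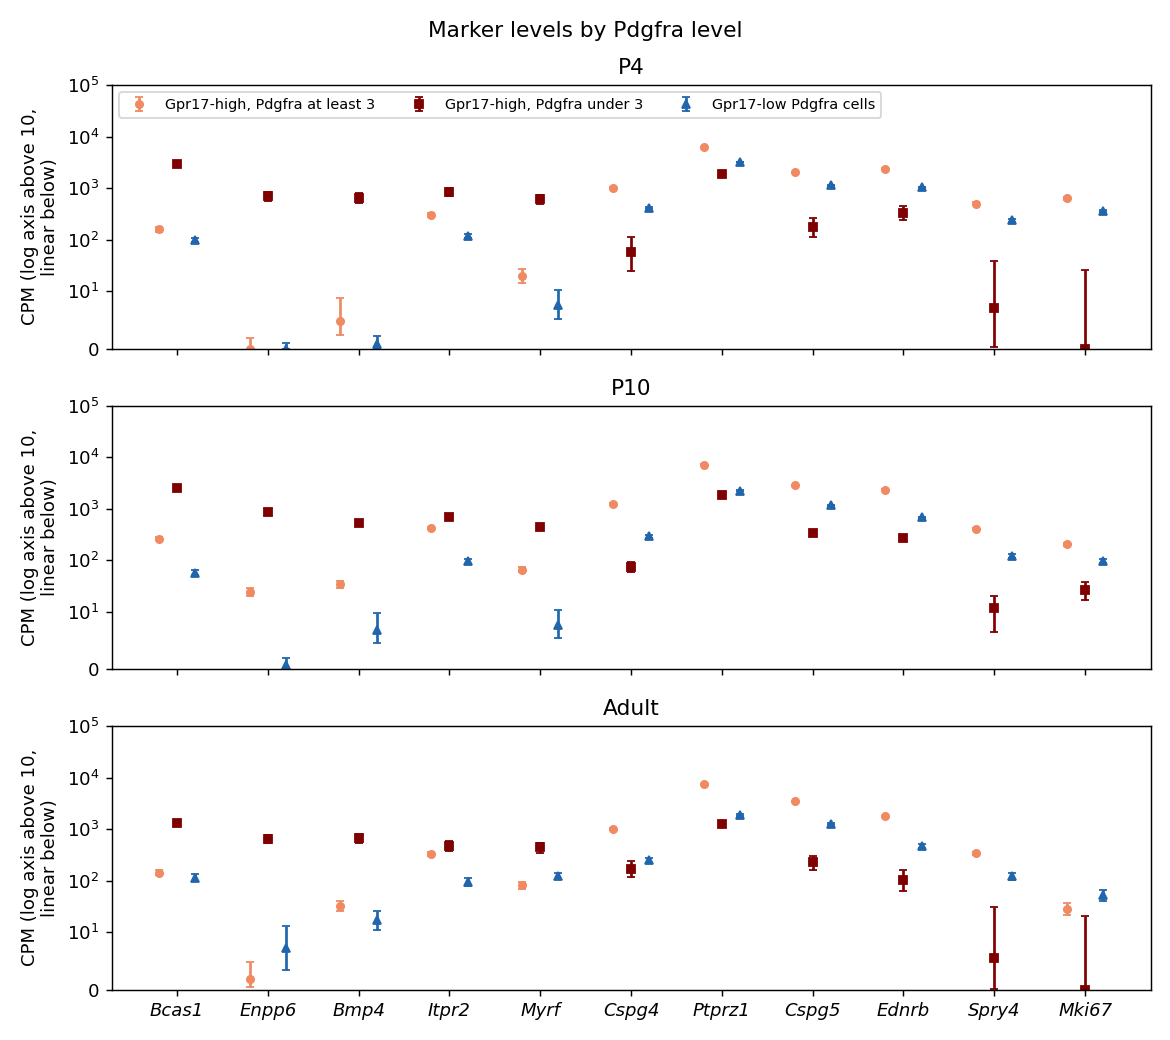
Levels of 11 genes at P4, P10 and adult (1 panel each) in Pdgfra-rich Gpr17-high cells (circles), Pdgfra-poor Gpr17-high cells (squares) and Gpr17-low Pdgfra cells (triangles). The axis is CPM of the summed UMIs, logarithmic above 10 and linear below, and bars are 95% exact Poisson intervals. *Bcas1*, *Enpp6*, *Bmp4* and *Myrf* are highest in the Pdgfra-poor cells of all 3 libraries, while *Cspg4*, *Ptprz1*, *Cspg5*, *Ednrb* and *Spry4* are highest in the Pdgfra-rich cells.

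The genes compared were the 2985 with a mean of at least 100 CPM in either group. Of these, 103 (3.45%) were at least 2-fold higher in Pdgfra-poor than in Pdgfra-rich cells in each of the 3 libraries, and 160 (5.36%) at least 2-fold lower. In screened cells 97 of the 103 and 120 of the 160 still passed in each library. The screened Pdgfra-poor cells numbered 13 (P4), 89 (P10) and 11 (adult). A gene without a UMI in them was set at 3 UMIs, which limits how low its ratio can be. The 12 genes with the largest smaller difference in the higher direction included *Enpp6*, *9630013A20Rik*, *Bmp4*, *Epb41l2*, *Lgi3*, *Tmem88b*, *Bcar1*, *Bcas1*, *Cldn11*, *1700047M11Rik* and *Mycl*. Those in the lower direction were *Spry4*, *Mmp15*, *Spry1*, *Rlbp1*, *Kcnip3*, *Nrarp*, *Cdo1*, *Cspg5*, *Chrna4*, *Shc4*, *Ednrb* and *Mdk*. Of the list of committed precursor markers, 5 of the 9 genes compared (*Bcas1*, *Enpp6*, *Nkx2-2*, *Fyn* and *Sirt2*) passed in the higher direction, with a list median of 1.95 on the log2 scale beside 0.05 over all genes. Of the OPC markers, 7 of 9 passed in the lower direction, with a median log2 ratio of -1.90. Of 9 myelin genes, 5 passed in the higher direction, among them *Mbp*, *Cldn11*, *Cnp* and *Nfasc*. *Pdgfra* itself chose the groups, and genes that go with it in a cell follow that choice. The limit of 100 CPM also admits genes through the group where they are high, which bears on the list medians.

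A UMI of *Mki67* or *Top2a*, both of which are made in cycling cells, was found in 5 of the 165 Pdgfra-poor cells, or 3.03% (0.991 to 6.93). The 5 cells all came from P10, where the share was 4.10% (1.34 to 9.31) in Pdgfra-poor and 16.2% (14.1 to 18.5) in Pdgfra-rich cells. In Pdgfra-rich cells it was 39.7% at P1, 38.6% at P4 and 2.81% in adult. With 0 of 16 cells at P4 and 0 of 26 in adult, shares of up to 20.6% and 13.2% remain possible there. *Cdkn1c*, which encodes the cell cycle inhibitor p57, stood at 282, 169 and 111 CPM in Pdgfra-poor cells and at 22.1, 42.8 and 33.7 CPM in Pdgfra-rich cells of P4, P10 and adult.

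Promoter sequences are shown for 3 genes: *Enpp6*, higher in Pdgfra-poor cells, *Cspg4*, higher in Pdgfra-rich cells, and *Sema3d*, which did not follow this split and is described below. Each runs from 250 bases before to 50 bases after the start of the gene as RefSeq places it (build GRCm38.p6), which can differ from the start in the GENCODE annotation, 5′ to 3′ on the strand of the gene, and capitals mark matches to ACAAAG or ACAATG, the core letters bound by SOX factors, on either strand. The window of *Enpp6* lies at chr8:46986637-46986936, that of *Sema3d* at chr5:12382916-12383215 and that of *Cspg4* at chr9:56864854-56865153, all on the + strand.
Enpp6: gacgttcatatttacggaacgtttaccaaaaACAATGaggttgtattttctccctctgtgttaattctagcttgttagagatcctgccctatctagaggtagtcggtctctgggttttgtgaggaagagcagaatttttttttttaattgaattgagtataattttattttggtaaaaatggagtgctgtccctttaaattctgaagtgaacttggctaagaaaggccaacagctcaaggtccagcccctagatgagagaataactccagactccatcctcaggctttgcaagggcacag
Sema3d: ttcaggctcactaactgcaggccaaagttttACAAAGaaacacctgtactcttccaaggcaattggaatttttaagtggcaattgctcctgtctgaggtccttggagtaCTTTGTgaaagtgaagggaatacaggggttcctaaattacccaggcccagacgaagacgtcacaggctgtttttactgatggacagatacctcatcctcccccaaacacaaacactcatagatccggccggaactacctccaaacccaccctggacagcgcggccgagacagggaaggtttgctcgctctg
Cspg4: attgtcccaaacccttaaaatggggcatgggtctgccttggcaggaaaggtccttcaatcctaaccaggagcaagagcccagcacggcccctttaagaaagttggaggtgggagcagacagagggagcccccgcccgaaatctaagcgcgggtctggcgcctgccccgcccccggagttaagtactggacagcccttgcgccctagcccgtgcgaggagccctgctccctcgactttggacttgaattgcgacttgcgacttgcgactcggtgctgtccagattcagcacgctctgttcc
The *Enpp6* window holds 1 ACAATG and the *Sema3d* window 2 matches to ACAAAG, 1 of them on the opposite strand, and the *Cspg4* window holds neither. ACAATG occurs in 12.6% and ACAAAG in 18.7% of 32851 promoters of the same length, counting both strands. Of the 12 leading genes higher in Pdgfra-poor cells, 9 have a promoter in the table, of which 4 hold ACAATG and 0 hold ACAAAG. Of the 12 leading genes lower there, 8 have a promoter, of which 0 hold ACAATG and 1 holds ACAAAG. The E-box CAGCTG is in 1 of the 9 and 2 of the 8, beside 16.3% of all promoters. A match is a description of letters and not a site known to be bound.

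The Gpr17-high cells were next compared with the Gpr17-low Pdgfra cells of the same library, on UMIs summed over cells, with library as a block. This asks which genes outside the definition differ between these classes. By definition they differ in *Pdgfra* as well as in *Gpr17*. The Gpr17-high class includes the 165 Pdgfra-poor cells, and the Gpr17-low Pdgfra class holds no such cells. At P10, the 122 Pdgfra-poor of 1225 Gpr17-high cells gave 510 of 1383 *Neu4* and 390 of 1113 *Nkx2-2* UMIs. For *Caskin2* they gave 114 of 1597. The part of these cells in the differences below was not tested. Of 11879 genes tested with edgeR's quasi-likelihood test, 841 (7.08%) were higher and 1047 (8.81%) lower in Gpr17-high cells at a Benjamini-Hochberg adjusted p under 0.05. The spread is that between the 4 libraries, which are 4 ages. Without the block for library, 0 genes passed in either direction, while 1200 had an unadjusted p under 0.05 (624 higher, 576 lower).

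The Gpr17-low Pdgfra cells held more transcripts of other cell types than the Gpr17-high cells. Neuronal markers reached 20 UMIs per 10,000 in 13.5%, 29.3%, 51.1% and 57.0% of the Gpr17-low Pdgfra cells from P1 to adult, and in 3.13%, 2.17%, 16.0% and 28.9% of the Gpr17-high cells. Fibroblast and mural markers reached it in 1.42%, 0.651%, 6.65% and 16.5% against 0%, 0%, 0.327% and 0.820%. In adult, 30 of the 158 Gpr17-low Pdgfra cells also had at least 5 UMIs per 10,000 of *Mog*, *Mag* and *Opalin*. Scrublet, which marks likely doublets, marked 8.51%, 28%, 36.7% and 25.9% of the Gpr17-low Pdgfra cells and 3.13%, 3.61%, 5.31% and 7.38% of the Gpr17-high cells.

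Screened cells were therefore compared as well, an alternative added after seeing the data. They were not marked by Scrublet, had less than 20 UMIs per 10,000 of the marker lists of neurons, astrocytes, microglia, fibroblasts and mural cells, and endothelial cells, had a lineage UMI, and had less than 5 UMIs per 10,000 of *Mog*, *Mag* and *Opalin*. They comprised 62, 395, 971 and 285 Gpr17-high and 111, 271, 113 and 15 Gpr17-low Pdgfra cells. Of 10709 genes tested, 196 (1.83%) were higher and 126 (1.18%) lower in Gpr17-high cells. Of these 322, 157 had also passed with the same sign over all cells (129 higher, 28 lower). Of the genes that had passed over all cells, 1616 were tested in screened cells, and these 157 kept their call. Where both values are given for a gene below, that of all cells comes first.

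*Neu4*, a sialidase known from oligodendrocyte precursors, had the largest difference in the higher direction among genes named by the rule, which asks for a mean of at least 100 CPM over the 4 libraries. It stood at 18.0 CPM (P1), 47.7 (P4), 233 (P10) and 584 (adult) in Gpr17-high cells, against 3.72, 6.03, 23.1 and 142 CPM in Gpr17-low Pdgfra cells. It was higher in every library, and higher at each later age in both classes. The log2 difference was 2.59 ± 0.24 (SE, 4 libraries, edgeR adjusted p = 0.00092), and 1.55 ± 0.24 in screened cells (edgeR adjusted p = 0.0045). *S100b*, a calcium-binding protein of glia, stood at 35.2, 61.3, 155 and 313 CPM against 12.3, 14.8, 26.1 and 104, with a log2 difference of 1.89 ± 0.19 (edgeR adjusted p = 0.0011) and 1.30 ± 0.17 in screened cells (edgeR adjusted p = 6.5e-05).

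*Nkx2-2*, a homeobox factor that promotes differentiation of OPCs, stood at 164, 156, 188 and 155 CPM in Gpr17-high cells and at 59.5, 61.1, 36.4 and 30.7 CPM in Gpr17-low Pdgfra cells from P1 to adult. Its level in Gpr17-high cells varied little with age. The log2 difference was 1.79 ± 0.19 (edgeR adjusted p = 0.0014) over all cells and 0.87 in screened cells (edgeR adjusted p = 0.00065). *Tnr*, which encodes the matrix glycoprotein tenascin-R, stood at 1117, 1367, 2493 and 3887 CPM against 510, 574, 496 and 843. It was higher in all 4 libraries, by a log2 difference of 1.66 ± 0.23 (edgeR adjusted p = 0.0029) and of 0.74 ± 0.11 in screened cells (edgeR adjusted p = 0.0004). The other genes named by the same rule in this direction were *Col9a3* (1.8 and 1.40), *Kank1* (1.78 and 1.10), *Gjc3* (1.71 and 1.20), *S100a13* (1.63 and 1.14), *Sema3d* and *Mfsd2a* (1.59 and 0.90), which passed in both comparisons, and *Caskin2*, which passed over all cells only (1.66, and 0.84 with an edgeR adjusted p of 0.059 in screened cells).

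*Lims2* was also named, at 56.6, 104, 157 and 225 CPM against 23.4, 31.9, 20.6 and 64.3, with a log2 difference of 1.89 ± 0.23 over all cells (edgeR adjusted p = 0.0021). It is uncertain, because *Gpr17* lies within *Lims2* on the opposite strand and a stranded count is not stated in the sources used here. Reads from the 2 genes cannot be told apart, and *Gpr17* chose the cells.

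*Sema3d*, a secreted semaphorin that guides axons and cells, stood at 180 CPM (P1), 176 (P4), 266 (P10) and 462 (adult) in Gpr17-high cells. It stood at 63.3, 68.9, 68.8 and 126 CPM in Gpr17-low Pdgfra cells, lower in each library. The log2 difference was 1.60 ± 0.14 (edgeR adjusted p = 0.00089) and 0.79 ± 0.14 in screened cells (edgeR adjusted p = 0.0035). Against myelinating oligodendrocytes it was higher by 2.88 ± 0.35 (edgeR adjusted p = 0.00027). Within the Gpr17-high cells it did not follow the split of *Enpp6*: Pdgfra-poor cells had 268, 231 and 260 CPM and Pdgfra-rich cells 169, 274 and 479 at P4, P10 and adult. At P4 the Pdgfra-poor value rests on 38 UMIs, of which 36.8% came from 1 cell. Of 28 guidance and adhesion genes, 8 were higher and 6 lower over all cells, beside 7.08% and 8.81% of all genes. In screened cells 1 of 26 was higher (*Sema3d*) and none lower, beside 1.83% and 1.18%.

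Of the 10 committed precursor markers, 9 were higher and 1 (*Rras2*) lower in Gpr17-high cells, beside 7.08% and 8.81% of all genes, with a median log2 difference of 1.51 beside 0.00. In screened cells 6 of 9 tested were higher (*Neu4*, *Tcf7l2*, *Itpr2*, *Nkx2-2*, *Fyn* and *Sirt2*), beside 1.83%, and the median was 0.76 beside 0.01. *Itpr2* stood at 322, 337, 472 and 341 CPM against 162, 119, 94.7 and 95.6, a log2 difference of 1.59 ± 0.19, and of 0.76 ± 0.11 in screened cells (edgeR adjusted p = 0.00022). *Bcas1* stood at 340, 337, 670 and 235 CPM against 252, 97.8, 57.6 and 115. Its log2 difference of 1.60 ± 0.42 passed over all cells (edgeR adjusted p = 0.036), while 0.87 ± 0.21 in screened cells did not (edgeR adjusted p = 0.069). Summed over the list, Gpr17-high cells stood at 2265, 2696, 4221 and 3107 CPM and the Pdgfra-rich among them at 2129, 1942, 2482 and 2484, against 13750 (P4), 12040 (P10) and 10484 CPM (adult) in the Pdgfra-poor cells. The Gpr17-low Pdgfra cells stood at 1489, 1225, 872 and 1069 CPM. That class holds no Pdgfra-poor cells by its definition, which bears on the list counts. In Gpr17-high cells, 100 of 100 (P4), 916 of 1034 (P10) and 117 of 121 (adult) *Enpp6* UMIs came from Pdgfra-poor cells.

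*Bmp4* was higher in Gpr17-high cells over all cells. It stood at 4.29 CPM (P1), 45.5 (P4), 122 (P10) and 82.0 (adult) in Gpr17-high cells, against 1.86, 0.754, 6.86 and 17.5 CPM in Gpr17-low Pdgfra cells. In screened cells the values were 4.56, 45.3, 135 and 92.6 CPM against 0, 0, 8.37 and 0. The fitted log2 difference was 3.44 ± 0.50 over all cells (edgeR adjusted p = 0.0035). In 3 of 4 libraries the screened Gpr17-low Pdgfra cells had no *Bmp4* UMI, so no ratio is defined there and nothing is read from its call in screened cells. Most of the signal came from Pdgfra-poor cells, as described above. In the list of purinergic, Wnt, BMP and growth factor signalling genes, 8 of 25 were higher and 4 lower over all cells, beside 7.08% and 8.81% of all genes. Of 19 tested in screened cells 1 (*Bmp4*, with the limit just given) passed as higher and 1 (*Egfr*) as lower, beside 1.83% and 1.18%.

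All 9 OPC markers were higher in Gpr17-high than in Gpr17-low Pdgfra cells, beside 7.08% of all genes, with a median log2 difference of 1.31. *Cspg4* stood at 672, 936, 1018 and 951 CPM against 306, 413, 290 and 249, a log2 difference of 1.44 ± 0.17 (edgeR adjusted p = 0.002). In screened cells the *Cspg4* values were 705, 994, 1173 and 1103 CPM against 347, 774, 975 and 1154, close to each other in the P10 and adult libraries, and the difference of 0.47 ± 0.13 did not pass (edgeR adjusted p = 0.054). Only *C1ql1* (0.49) and *Cacng4* (0.40) of the 9 passed there, beside 1.83% of all genes, and the list median was 0.47 beside 0.01. *Pdgfra* itself, which the definition used on both sides, was at 4206, 5313, 4622 and 4456 CPM in Gpr17-high cells and at 2506, 2558, 1472 and 1489 in Gpr17-low Pdgfra cells. In screened cells it was at 2850, 4821, 5286 and 5230 CPM in the latter.

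**Figure D4:**
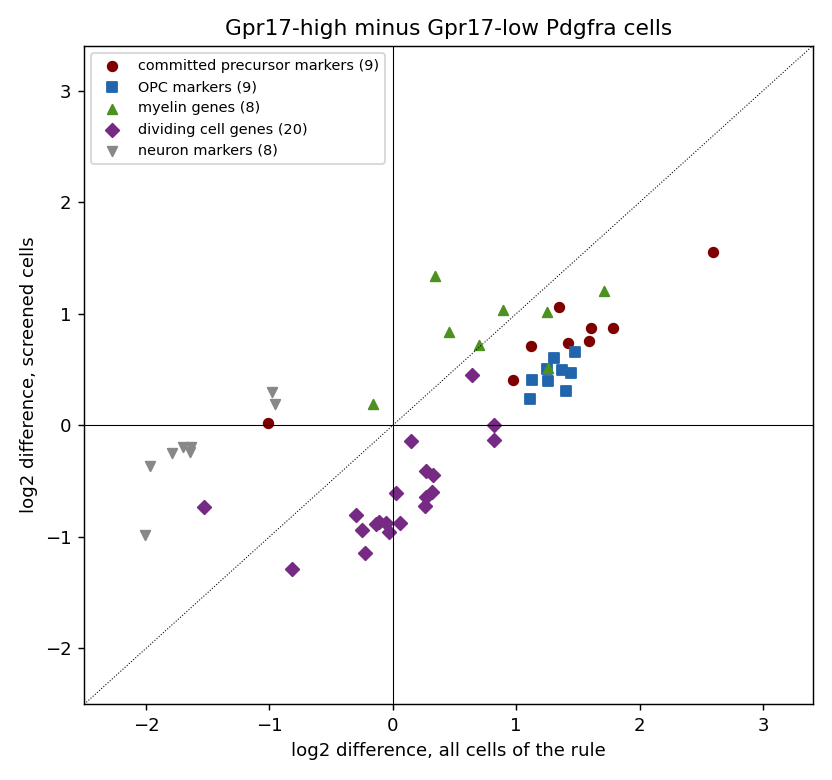
Log2 difference of Gpr17-high minus Gpr17-low Pdgfra cells over all cells of the definition (x axis) and over screened cells (y axis), edgeR fits on 4 libraries. Each point is a gene tested in both, from the lists of committed precursor markers (9), OPC markers (9), myelin genes (8), dividing cell genes (20) and neuron markers (8). The dotted line marks equal values: OPC markers lie below it, with medians of 1.31 over all cells and 0.47 over screened cells. The neuron markers were used by the screen, so their screened values follow from it.

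Among lineage transcription factors outside the definition, 4 of 8 tested were higher over all cells (*Nkx2-2*, *Sox8*, *Tcf7l2* and *Zfp488*), beside 7.08% of all genes. In screened cells *Myrf*, *Nkx2-2*, *Tcf7l2* and *Zfp488* were higher and 1 gene was lower, beside 1.83% and 1.18%. *Myrf* stood at 27.4, 57.2, 134 and 110 CPM against 8.93, 7.54, 7.77 and 124, the last value in a class that held 30 cells with myelin transcripts. Its difference was 1.97 ± 0.70 over all cells (edgeR adjusted p = 0.11) and 2.03 ± 0.22 in screened cells (edgeR adjusted p = 5.3e-06), where all 4 libraries had more *Myrf* in the Gpr17-high cells. Of the *Myrf* UMIs of the Gpr17-high cells, 86 of 127 at P4 and 480 of 798 at P10 came from the 16 and 122 Pdgfra-poor cells. The Gpr17-low class holds no such cells, since it was defined by *Pdgfra*.

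Of 14 genes listed as inhibitors of differentiation, 13 were tested, and 5 (*Hes1*, *Hes5*, *Hey1*, *Sox2* and *Sox6*) were higher in Gpr17-high cells over all cells, beside 7.08% of all genes. In screened cells none of 13 was higher and *Sox11* was lower, beside 1.83% and 1.18%. *Sox11* stood at 387, 326, 180 and 127 CPM in screened Gpr17-high cells and at 780, 404, 316 and 105 CPM in screened Gpr17-low Pdgfra cells, higher in the latter in all but the adult library, which holds 15 such cells.

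Myelin genes were not uniformly different. Over all cells 3 of 10 tested were higher (*Ugt8a*, *Gjc3* and *Cd9*), beside 7.08% of all genes, and in screened cells 5 of 9 (*Cldn11*, *Ugt8a*, *Gjc3*, *Cd9* and *Nfasc*), beside 1.83%. *Mbp* stood at 65.2, 140, 293 and 339 CPM in Gpr17-high cells and at 27.9, 41.0, 46.0 and 1761 CPM in Gpr17-low Pdgfra cells. The order was opposite in adult, and the log2 difference of 0.89 ± 0.90 did not pass (edgeR adjusted p = 0.56). In screened cells *Mbp* stood at 294 CPM in adult against 899, and the difference did not pass either (1.04 ± 0.81, edgeR adjusted p = 0.68). Of 21 cholesterol synthesis genes, 3 (among them *Hmgcs1* and *Fdft1*) were lower over all cells, beside 8.81% of all genes, and none passed with edgeR in screened cells.

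Of 20 genes of cell division, 2 (*Ccnb2* and *Ccnd1*) were higher and 1 (*Cdkn1a*) lower over all cells, beside 7.08% and 8.81% of all genes, with a median log2 difference of 0.04. In screened cells 0 were higher and 6 lower (*Pcna*, *Mcm2*, *Mcm3*, *Mcm5*, *Mcm6* and *Ccnd2*), beside 1.83% and 1.18% of all genes, and the median was -0.73 beside 0.01 over all genes. *Mcm* genes encode parts of the helicase that opens DNA for replication, and Pcna clamps the polymerase. *Ccnd2*, a cyclin of the start of the cycle, stood at 219, 304, 165 and 87.7 CPM in screened Gpr17-high cells, below the 922, 523, 339 and 240 CPM of screened Gpr17-low Pdgfra cells in every library (log2 difference -1.29 ± 0.21, edgeR adjusted p = 0.012). The adult value of the latter class, here and for *Mki67*, rests on 15 cells. In the same screened classes *Mki67* stood at 457, 648, 191 and 33.3 CPM against 641, 741, 477 and 495, and its difference of -0.88 did not pass (edgeR adjusted p = 0.6).

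*Dlx1*, a homeobox gene of the ganglionic eminences and of interneurons, had a large difference in the lower direction in both comparisons. It stood at 40.3, 19.8, 12.5 and 7.33 CPM in Gpr17-high cells and at 269, 133, 68.8 and 35.8 CPM in Gpr17-low Pdgfra cells, higher in the latter at every age (log2 difference -2.66 ± 0.15, edgeR adjusted p = 0.00012). In screened cells the difference was -3.17 ± 0.21 (edgeR adjusted p = 6.7e-09), with 19.1, 14.0, 12.9 and 4.87 CPM against 271, 106, 103 and 0. *Egfr*, a growth factor receptor of neural progenitors, stood at 39.4, 20.3, 15.2 and 7.76 CPM against 319, 60.3, 19.2 and 21.2. Its log2 difference was -1.69 ± 0.36 (edgeR adjusted p = 0.017) over all cells and -2.74 ± 0.19 in screened cells (edgeR adjusted p = 3.9e-09). *Kitl*, the ligand of the receptor Kit, was lower by -1.91 and, in screened cells, -2.17 (edgeR adjusted p = 0.0012), and *St8sia2*, a polysialyltransferase, by -2.16 and -1.28.

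The other genes with the largest differences in the lower direction were markers of fibroblasts and mural cells or of neurons. *Col1a1* (log2 difference -6.26 ± 0.41), *Col1a2* (-5.01), *Itih5* (-4.41) and *Vtn* (-4.03) were too low to be tested in screened cells. The screen itself used *Col1a1* and *Col1a2*. *Gad2* (-2.01), *Camk2a* (-1.99), *Slc17a7* (-1.96), *Gabra5* (-1.94) and *Necab1* (-1.92) passed over all cells. The screen used *Gad2* and *Slc17a7*, which have no reading there, and *Camk2a* (-0.59), *Gabra5* (-0.25) and *Necab1* (-0.30) did not pass in screened cells. Cells rich in neuron markers had been removed there, which bears on these neuronal genes too. Of 8 neuron markers 7 were lower over all cells, beside 8.81% of all genes, with a median of -1.67 beside 0.00. They too have no reading in screened cells. Summed neuron markers stood at 630, 692, 1746 and 2696 CPM in Gpr17-high cells and at 835, 2337, 5966 and 7533 CPM in Gpr17-low Pdgfra cells. The fibroblast and mural list stood at 0.858 to 95.8 CPM against 50.5 to 1113. None of the microglia (7 tested) or endothelial (3 tested) markers passed over all cells, and *Gja1*, of 5 astrocyte markers tested, was lower. Over all genes 7.08% were higher and 8.81% lower.

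Genes of the matrix, of transmitter reception and of the cytoskeleton are read against the 7.08% of all genes that were higher and the 8.81% that were lower, in screened cells 1.83% and 1.18%. Of 15 matrix and proteoglycan genes, 9 were higher and 1 (*Spock1*) lower, with a median log2 difference of 0.90. In screened cells 4 of 14 passed, all higher: *Vcan* (0.40), *Tnr*, *Gpc5* and *Col9a3*. Of 30 genes for glutamate and GABA receptors and ion channels, 10 were higher and 3 lower over all cells, with a median of 0.20. In screened cells *Gria4* (0.50), an AMPA receptor subunit, and *Cacng4* (0.40), which helps AMPA receptors reach the surface, were higher and none was lower. Of 23 cytoskeletal genes, 2 were higher and 8 lower over all cells, among them the neuronal *Stmn2*, *Tubb3* and *Elavl3*. In screened cells *Tubb4a*, a tubulin of oligodendrocytes, and *Dock9* were higher and *Stmn1* lower.

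Among genes of at least 50 CPM in either class that passed in screened cells, several further ones had large differences. They were chosen after their values were seen. In the higher direction these were *Col11a2* (1.76 ± 0.24), *Fa2h* (1.33 ± 0.18), which makes the hydroxylated lipids of myelin, *Ptpn14* (1.22 ± 0.29) and *Epb41l2* (1.08 ± 0.21). In the lower direction they were *Dlx2* (-3.61 ± 0.47), a homeobox gene of interneurons, and *Draxin* (-2.36 ± 0.18). Over the same cells *Nes*, which encodes the progenitor filament nestin, was lower by -1.09 ± 0.17. Without the screen, 188 of 394 (P4), 1346 of 1907 (P10) and 140 of 283 (adult) *Epb41l2* UMIs of Gpr17-high cells came from Pdgfra-poor cells. The Gpr17-low class holds no such cells, since it was defined by *Pdgfra*.

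Myelinating oligodendrocytes were numerous enough for a comparison in P10 (11 cells) and adult (1207 cells) only, so the test rests on 2 libraries, with the spread estimated over all 3 classes. Of 13051 genes, 1199 (9.19%) were higher and 1145 (8.77%) lower in Gpr17-high cells. Without the adult library the counts were 143 and 219. All 9 OPC markers were higher in Gpr17-high cells, with a median log2 difference of 4.63 beside -0.03 over all genes. Of 12 myelin genes 0 were higher and 6 lower, and of 21 cholesterol synthesis genes 13 were lower, with a median of -1.38. *Mog*, *Mag* and *Opalin* chose both classes, and genes that go with them in a cell follow that choice. In P10, 5 of the 11 oligodendrocytes had neuronal markers at 20 UMIs per 10,000 or more. Of 20 dividing cell genes 11 were higher. However, 11 of the 20 listed genes had no UMI in the P10 oligodendrocytes, so nothing is read from this count. No fold is given for *Mki67* and *Cspg4*, which had no UMI in the 11 oligodendrocytes of P10.

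Of 10 committed precursor markers, 2 were higher (*Neu4*, which had 1 UMI in the P10 oligodendrocytes, and *Nkx2-2* by 1.71) and 2 lower (*Rras2* and *Sirt2*) in Gpr17-high cells, beside 9.19% and 8.77% of all genes, with a median of 0.05. The genes that were higher in Gpr17-high cells than in both other classes, ranked by the smaller of the 2 differences, were led by *Neu4*, *S100b*, *Lims2*, *Kank1*, *Nkx2-2*, *Tnr*, *Caskin2* and *S100a13*. Of these, *S100b* differed from myelinating oligodendrocytes by 2.0, *Kank1* by 1.96 and *Tnr* by 3.29 on the log2 scale. *Lims2* carries the limit given above.

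Depth differs between ages, so shares of cells with a UMI were compared after random thinning of every cell to 2,000 UMIs. This left out 0, 4, 20 and 5 Gpr17-high cells. *Bcas1* was then found in 31.3%, 23.4%, 35.6% and 24.8% of Gpr17-high cells from P1 to adult, and without thinning in 90.6%, 50.4%, 58.0% and 43.0%. In Gpr17-low Pdgfra cells the thinned share was 38.3%, 19.7%, 15.9% and 18.1%, and in microglia 0%, 0%, 0.722% and 2.81%. In screened Gpr17-low Pdgfra cells it was 45.9%, 27.1%, 36.4% and 33.3%, and its counting intervals overlapped those of the Gpr17-high cells in every library. *Mki67* was found in 15.6% (7.76 to 26.9), 25.8% (21.6 to 30.3), 9.29% (7.71 to 11.1) and 1.86% (0.855 to 3.51) of thinned Gpr17-high cells, and in 29.7%, 30.1%, 11.0% and 1.84% without thinning. It was found in 0 of 1200 adult myelinating oligodendrocytes, which allows up to 0.307%, and in 0.161% of adult microglia. *Snap25*, a neuronal gene, was found in 32.8%, 31.1%, 52.6% and 71.0% of Gpr17-high cells and in 9.09%, 21.3%, 46.5% and 74.6% of microglia. Its adult share in Gpr17-high cells was below that in microglia and is not read as expression.

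Between P4 and P10, 139 of 5401 genes of at least 50 CPM (2.57%) were more than 2-fold higher in Gpr17-high cells and 101 (1.87%) more than 2-fold lower, with 1 library per age and no test. The genes with the lowest ratio were *Vit* (log2 ratio -3.33, 95% counting interval -3.74 to -2.95), *Vim* (-2.74), *Nes* (-2.17), *Cenpe* (-1.99) and *Mki67* (-1.79, -1.91 to -1.67). *Vim* and *Nes* encode intermediate filaments of immature glia, and Cenpe moves chromosomes at mitosis. *Vim* stood at 344, 350, 52.2 and 52.6 CPM from P1 to adult and *Nes* at 116, 131, 29.1 and 11.2, both low from P10 on. The Gpr17-low Pdgfra cells had similar ratios (*Vit* -3.01, *Vim* -2.47, *Nes* -2.18, *Cenpe* -1.93 and *Mki67* -1.86), while over all other cells they were smaller (-0.98, -0.79, -1.02, -0.67 and -1.15).

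The genes with the highest ratio from P4 to P10 were neuronal: *Slc17a7* (log2 ratio 3.19), *Rgs4* (3.05), *Camk2a* (2.99), *Cck* (2.96) and *Gda* (2.73). The same genes were higher at P10 in microglia, where *Slc17a7* went from 42.9 to 178 CPM, *Camk2a* from 58.6 to 171, *Rgs4* from 33.8 to 138, *Cck* from 20.3 to 186 and *Gda* from 11.3 to 116 CPM. The part of free or attached neuronal RNA in these values was not tested. In screened cells 117 genes were past 2-fold higher and 100 lower, close to the numbers over all cells.

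From P10 to adult, 183 of 5483 genes (3.34%) were more than 2-fold higher and 146 (2.66%) more than 2-fold lower. *Sox9*, a transcription factor of glial progenitors and astrocytes, stood at 609, 659, 364 and 25.4 CPM from P1 to adult. Its log2 ratio from P10 to adult was -3.84 (-4.24 to -3.47) in Gpr17-high cells, -1.55 in Gpr17-low Pdgfra cells and 0.69 over all other cells. *Mki67* (-2.70, -3.10 to -2.33) and *Top2a* (-3.45) were lower as well, and stood at 430, 593, 171 and 26.3 CPM and at 461, 547, 198 and 18.1 CPM over the 4 ages. *Cd24a* (-5.52) and *Dpysl5* (-2.94), genes of immature neural cells, had ratios like those over all other cells (-5.52 and -3.93).

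The highest ratio from P10 to adult was that of *Ptgds* (6.71), a prostaglandin synthase that stood higher in adult microglia as well, from 0.340 to 330 CPM. *Cryab* (4.45), a small heat shock protein of mature oligodendrocytes, was likewise higher in adult microglia, from 5.1 to 69.8 CPM. *Gpld1*, a phospholipase that cleaves lipid-anchored proteins from membranes, stood at 4.29, 4.50, 35.5 and 346 CPM, a ratio of 3.28 (3.06 to 3.51), beside 3.24 in Gpr17-low Pdgfra cells and 1.53 over all other cells. Adult microglia had 15.9 CPM of *Gpld1*. *Ifi27* (4.21) stood at 156 CPM and *Pcdhb9* (2.64), a clustered protocadherin, at 100.5 CPM in adult Gpr17-high cells.

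From P1 to P4, 171 of 5606 genes (3.05%) were more than 2-fold higher and 343 (6.12%) more than 2-fold lower. In the higher direction *Nrgn* (3.18), *Gm10076* (2.92), *Eno1b* (2.67) and *Ftl1-ps1* (2.32) had similar ratios over all other cells (2.87, 2.83, 2.86 and 2.22). In the lower direction *Gm49317* (-9.24), *Gm28928* (-7.87), *Gm20388* (-7.10 or lower, since it had 0 UMIs at P4) and *Sgcd* (-6.68) also had ratios of -5.06 or lower in Gpr17-low Pdgfra cells and of -5.54 or lower over all other cells. Such genes follow the library and not the cell class, and the age and the pipeline version cannot be told apart in them. *Il1rapl2* (-6.49) rests on 142 UMIs in 4 of 64 cells, with 88.7% of them in 1 cell.

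**Figure D5:**
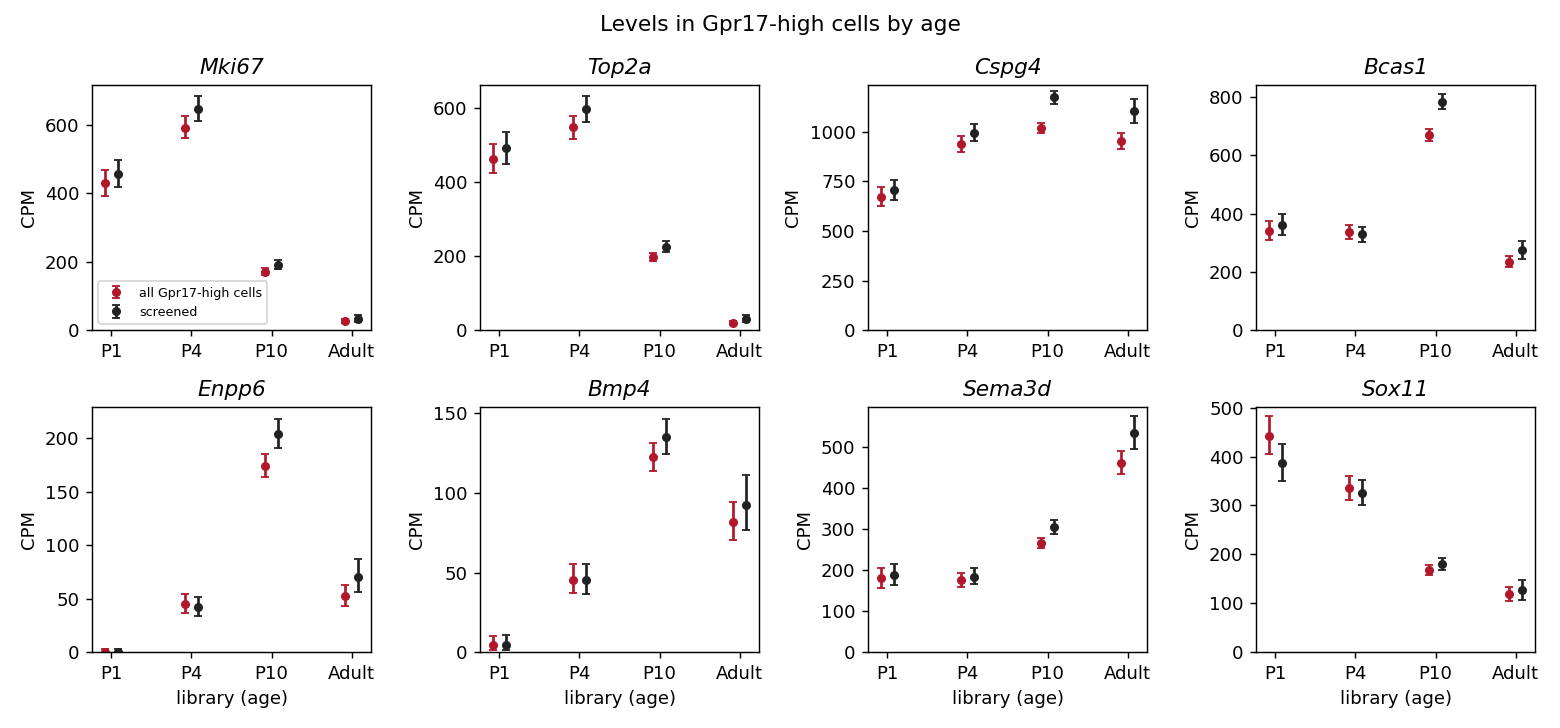
Levels of 8 genes in Gpr17-high cells at each age, over all such cells (red) and over screened cells (black). The axes show CPM of summed UMIs of 1 library per age, and bars are 95% exact Poisson intervals, which cover counting error only. *Mki67* and *Top2a* are lower at P10 and lowest in adult, *Bcas1*, *Enpp6* and *Bmp4* are highest at P10, *Sema3d* is highest in adult (462 CPM over all cells), and *Sox11* is lowest in adult.

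The committed precursor markers did not share 1 course with age. *Bcas1* stood at 340, 337, 670 and 235 CPM over all Gpr17-high cells from P1 to adult, and *Enpp6* at 0, 45.0, 174 and 52.2 CPM. Both were highest at P10, while *Neu4* was highest in adult (584 CPM) and *Nkx2-2* stayed between 155 and 188 CPM. Within the Pdgfra-poor cells of P4, P10 and adult, *Enpp6* was at 705, 848 and 648 CPM and *Bcas1* at 2939, 2498 and 1301 CPM. *Sema3d* had its highest level in adult. *Sox11* stood at 443, 336, 168 and 119 CPM, lower at each later age.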

How the data were processed

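Libraries were made on the BD Rhapsody system, 1 per age. The deposited values are UMI counts per gene and barcode, not normalized, from a step before the authors filtered cells and removed doublets. Reads were aligned by the authors to GRCm38, annotated by GENCODE, in the BD Rhapsody analysis pipeline. The file headers name version 1.8 for P4, P10 and adult and a later one for P1, while the methods give the later version for all libraries, and this was not resolved. The P1 header gives the library another age name (P0), and the label P1 was used.

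Cells were kept if UMIs and genes each reached 1000 and mitochondrial UMIs did not exceed 15%. The cells described and all gene lists were chosen with earlier results of these data known. Doublets were marked by Scrublet in scanpy 1.11.5 (expected rate 0.06) and kept in the main values. Microglia were cells with at least 3 UMIs per 1000 of *C1qa*, *C1qb*, *C1qc* and *Csf1r*. UMIs were summed per class and library, where a class held at least 10 cells. Sums were tested with the quasi-likelihood test of edgeR 4.0.16 (R 4.3.3, TMM scaling, low counts filtered, library as block, Benjamini-Hochberg adjustment over all genes tested), after a check on simulated data. Genes of the definition were left out of the tests and are given as values only. The p-values measure the spread between 4 libraries of different age, with 1 library each. Genes were named as the 12 largest differences in each direction with the same sign in every library, an adjusted p under 0.05 also against Gpr17-low Pdgfra cells with a lineage UMI, and at least 100 CPM in the higher class; as the 8 genes highest above both other classes; as the 5 largest ratios in each direction between ages; as members of fixed lists; and *Sema3d*. Some genes that met these rules are not reported here. Intervals at the 95% level are exact (Poisson for CPM, conditional binomial for ratios, binomial for shares) and cover counting error only. A gene without a UMI was set at 3 UMIs for a ratio. Alternatives were other scaling (median-of-ratios), DESeq2 1.42.0, no filter on low counts, other limits for *Gpr17*, thinned cells, Scrublet-marked cells removed, each library left out and no block.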

Additional observations from a re-analysis of the deposited data

Results flagged for a closer look

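Among the lists of committed precursor, OPC and myelin genes, lineage transcription factors and inhibitors of differentiation, 5 genes are given here that were at least 2-fold higher in Gpr17-high than in Gpr17-low Pdgfra cells in 1 library and at least 2-fold lower in another, with counting intervals clear of 0. Smaller changes of sign, such as that of *Myrf* (-0.17 in adult), are not included. With 1 library per age, the difference between ages was not tested, and the values below are log2 ratios of CPM at P1, P4, P10 and in adult.

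*Mbp* had ratios of 1.22, 1.77, 2.67 and -2.38, and in screened cells of 1.13, 1.74, 2.52 and -1.61. *Cldn11* had 0.90, 1.75, 2.84 and -3.47, and in screened cells 0.73, 1.38, 1.90 and 0.60. *Cnp* had -0.072, 1.66, 2.75 and -1.34, and in screened cells -0.27, 0.72, 1.61 and 1.36. *Ermn* had -0.30, 0.73, 3.30 and -5.36. These 4 are myelin genes, and the adult value was below 0 in each over all cells. Summed myelin genes stood at 12734 CPM in adult Gpr17-low Pdgfra cells, of which 30 of 158 had at least 5 UMIs per 10,000 of *Mog*, *Mag* and *Opalin*, and at 583 to 639 CPM at the other ages. In screened cells, which lack such cells, the adult ratio of *Cldn11* and *Cnp* was above 0 and that of *Mbp* stayed below it. These adult ratios rest on 15 screened Gpr17-low Pdgfra cells, and the cause of the changes of sign was not tested.

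*Sox11*, a gene of immature neural cells, had ratios of -1.12, -0.66, 0.22 and 1.24, and in screened cells of -1.01, -0.31, -0.81 and 0.27, the last resting on 15 screened Gpr17-low Pdgfra cells.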

How the results depend on the processing

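Limits: each age is 1 library, Gpr17-high cells of the last 3 libraries have median depths of 4557 to 5428 UMIs, and 15 adult Gpr17-low Pdgfra cells remained after screening.

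The classes were paired within each library by the block for library in the tests, and without that block (no replicate block) 0 genes were higher and 0 lower, the smallest adjusted p being 0.051. Leaving out 1 library gave 224 to 1556 genes higher and 263 to 2100 lower than in Gpr17-low Pdgfra cells (1556 and 2100 without P1, 327 and 474 without P4, 224 and 263 without P10, 357 and 469 without adult). Of all cells against screened cells the counts were 841 against 196 higher and 1047 against 126 lower, and within screened cells leaving out 1 library gave 76 to 165 higher and 58 to 136 lower. Thinning gave 435 higher, removing Scrublet-marked cells 343 higher and 447 lower, and no filter on low counts 1714 lower. Other scaling (769 and 1069), DESeq2 (695 and 1011), the lineage requirement (718 and 904) and a *Gpr17* limit of 10 (877 and 1191) moved the counts by less than 1.5 times. Against myelinating oligodendrocytes, leaving out 1 library gave 143 to 1530 higher and 219 to 1555 lower, the lowest without adult. The cause of these shifts was not tested.

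A *Gpr17* limit of 10 gave shares of 0.113%, 0.952%, 6.05% and 2.71% from P1 to adult, and a stricter cell filter 4.07% in adult. With at least 100 CPM, 80 genes were past 2-fold higher and 184 lower from P1 to P4, 72 and 47 from P4 to P10, and 90 and 83 from P10 to adult. Thinned cells gave 519 and 644 from P1 to P4. Without thinning, the share with a *Bcas1* UMI was 90.6%, 50.4%, 58.0% and 43.0% from P1 to adult, and with a *Mki67* UMI 29.7% at P1.

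Of the 24 genes named by size, all kept their call with other scaling, DESeq2, no filter, both other *Gpr17* limits, Scrublet-marked cells removed and each library left out. The rule that named them had already asked for the same sign in every library and for a call under the lineage requirement, so neither is separate support. Under thinning 21 kept the call (3 not tested), and all 24 lost the call without the block. In screened cells 14 kept the call and 6 lost it, among them *Gad2* and *Slc17a7*, which the screen used. The other 4 were not tested there, among them *Col1a1* and *Col1a2*, which the screen also used.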
